A study of Mus musculus with 13 samples.

Results

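Visceral fat from wild-type (WT) mice and from mice labelled as fat-specific PD-L1 knockouts (KO) was compared across all genes, after feeding of both groups on HFD (high-fat diet). The 7 fat libraries, 4 KO and 3 WT, were chosen by their tissue label out of the 13 libraries of the series, the other 6 being tumours. All mice were labelled C57BL/6 and no agent other than the diet was given as differing or shared. The Cre driver, the ages, the length of feeding and the fat depot were not given in the sources used here, and nothing in the labels says whether each library was from its own mouse, so the p-values reflect how much these libraries vary, which may be technical. Columns of the expression table are called KO 1, KO 2, KO 3, KO 4, WT 1, WT 3 and WT 4, as they are numbered there.

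White fat stores triglyceride in adipocytes, which also release hormones such as adiponectin and leptin. In obesity, macrophages gather around dying or overloaded adipocytes, take up their lipid and degrade it in lysosomes, and a lipid-associated state marked by Trem2, Cd9 and Gpnmb is well described. Cd274 encodes PD-L1, which engages PD-1 on T cells and dampens their response.

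The deposited values are read counts divided by a size factor for each library, here called normalised values. They were compared on the scale log2(value + 1), KO minus WT, which understates the change of genes with low values. Of 22609 genes, 14455 reached a value of 10 in 3 or more of the 7 libraries and were tested with limma. A gene is said to have risen or fallen in KO fat when its Benjamini-Hochberg adjusted p, over all 14455 genes, was under 0.05. A call is named stable when the gene also passed in each of the 7 fits that left out 1 library, with log2 fold changes that stayed within 1.5 times of each other. Standard errors (SE) are those of the fit to 4 KO and 3 WT libraries, and a bare value in parentheses after a gene name is its log2 fold change, as are the medians given for gene lists.

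The targeted gene overlapped between the groups. Cd274 (GRCm38 chromosome 19, bases 29367455 to 29388095, plus strand) stood at 547.5, 521.1, 563.8 and 543.2 in KO 1 to KO 4 and at 504.1, 738.6 and 527.9 in WT 1, WT 3 and WT 4, with a log2 fold change of -0.10 (SE 0.15, limma adjusted p = 0.66). With library weights it passed, at -0.36 on the log2 scale (limma adjusted p = 0.0212), and it passed in none of the other settings run. The KO values lay inside the WT range, whole-tissue RNA over the whole gene does not show whether part of it was removed in adipocytes, and KO below means the libraries labelled so.

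The libraries held 29362788 to 41534662 gene reads, recovered from the steps of the values. The first principal component took up 65.2% of the variance and set all KO libraries, at 27.6 to 61.1, apart from the WT libraries, at -84.6 to -32.0. WT 1 was the WT library nearest to the KO mean for 74.4% of the genes that rose and 55.2% of those that fell, and WT 4 was the farthest for 67.6% and 50.3%. Transcripts typical of other tissues were seen in some libraries. Sperm cell genes were at up to 282.2 (Prm2) in WT fat, with Prm2 at 282.2, 92.0 and 25.8 in WT 1, WT 3 and WT 4 against 1.08 at most in KO fat. Adam7, a gene of the epididymis, was at 1918 in WT 4 and at most 2.02 in every other library. Pnlip, the lipase of the exocrine pancreas, was at 492.8 in KO 4 and at most 9.08 elsewhere, and Alb, the albumin gene of liver, ran from 229.6 in KO 1 to 6343 in WT 4. The part of these tissues in the results was not tested, and counts without WT 4 or KO 4 stand among the values with 1 library left out. Y-linked Ddx3y was at 3612 to 6067 in all libraries, and Xist, which silences the second X of females, was at 1.10 to 51.6.

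In KO fat, 2430 genes rose (16.8% of those tested) and 2517 fell (17.4%), of which 1215 (8.41% of those tested) and 1142 (7.9%) did so at least 2-fold. Stable calls numbered 1143 rises (7.91%) and 1344 falls (9.3%). The KO values all lay above the WT values for 3120 genes (21.6%) and all below for 3199 (22.1%). The median log2 fold change over all tested genes was -0.00050. Without WT 3 the counts fell to 1575 rises and 1490 falls. These shares are the background for each gene group below. For each list below in which none rose, or none fell, edgeR on the recovered reads also called none that way, DESeq2 called at most 1, and at most 3 had an unadjusted limma p under 0.05. With 1 library left out, 5 genes of lipid uptake rose (without WT 1) and at most 1 gene passed that way in each of the other such lists. With library weights, which called 4308 rises and 4389 falls over all genes, 8 genes of lipid uptake rose, 11 of MHC class I presentation and 5 of T cells fell, and at most 4 genes passed that way in each of the other such lists.

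**Figure D1:**
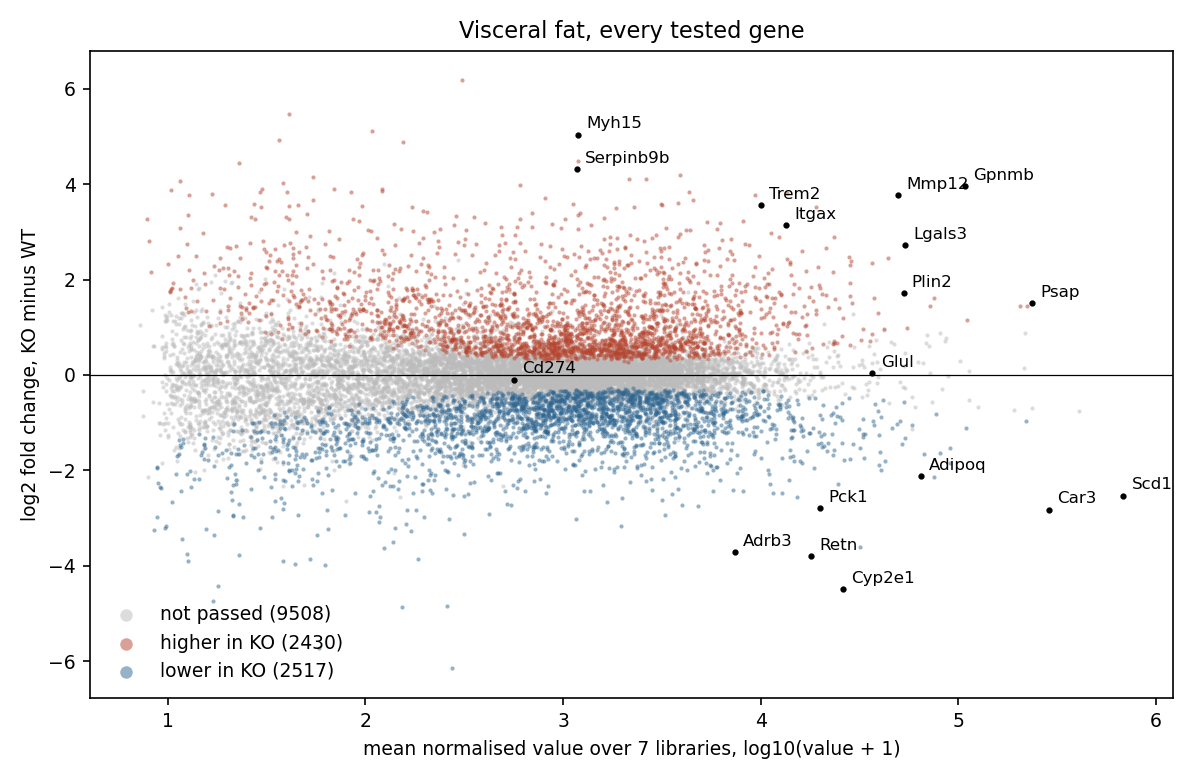
Log2 fold change (KO minus WT, y axis) of each of the 14455 tested genes against its mean normalised value over the 7 libraries on a log10 scale (x axis), with 2430 genes that rose in red, 2517 that fell in blue and the rest in grey. Macrophage genes such as Gpnmb and Mmp12 stand above 3 at high expression, fat cell genes such as Cyp2e1, Retn and Adrb3 stand below -3, and Cd274 lies near 0.

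Fat cell genes were among the largest losses. Retn, which encodes the hormone resistin (GRCm38 chromosome 8, bases 3655770 to 3660110, plus strand), was at 4135, 1661, 3176 and 1928 in the KO libraries and at 20664, 38627 and 54996 in the WT libraries, 13.8-fold lower in KO fat (log2 fold change -3.79, SE 0.40, limma adjusted p = 0.000939). Adipoq, the adiponectin gene (GRCm38 chromosome 16, bases 23146536 to 23158028, plus strand), was at 29625, 18358, 31684 and 27402 against 100179, 116993 and 126791, 4.35-fold lower (log2 fold change -2.12, SE 0.24, limma adjusted p = 0.00101). For both genes every KO library lay below every WT library. As a check of the tissue label, Adipoq, Plin1 and Lipe were at 9431 or more in all 7 libraries.

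Of 26 tested genes of adipocyte identity, 24 fell and none rose, 19 of the falls being stable, and their median log2 fold change was -1.61. Adrb3, the adrenergic receptor through which sympathetic nerves start lipolysis, was at 864.3, 822.1, 1336 and 1144 in KO fat and at 6467, 13249 and 27771 in WT fat (log2 fold change -3.71, SE 0.43, limma adjusted p = 0.0011). Pck1, whose enzyme makes glycerol phosphate for triglyceride in fat, was at 4670.4, 2879, 7446 and 5386 against 13995, 43158 and 61559 (log2 fold change -2.79, SE 0.50, limma adjusted p = 0.00423). Both showed a wide spread in WT fat, with WT 1 lowest and WT 4 highest, and no overlap with KO fat. Slc2a4, the insulin-responsive glucose transporter GLUT4, fell 4.69-fold and Lipe, the hormone-sensitive lipase, 3.72-fold (limma adjusted p = 0.000939 and 0.00124). The 2 members that did not pass were Cidea and Lpl. Lpl, the lipase that frees fatty acids from circulating triglyceride, was at 322667, 295900.0, 318554 and 321222 in KO fat and 525785, 546266 and 516145 in WT fat, without overlap, at a log2 fold change of -0.75 (SE 0.38, limma adjusted p = 0.157). Lpl passed in limma without the trend of variance on level (adjusted p = 0.00387) and in edgeR (adjusted p = 0.0265), and its log2 fold change was -0.01 under quantile normalisation.

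The summed level of the macrophage identity list, 25 genes, moved against these losses, at 438171 to 621405 in KO fat and 87219 to 247134 in WT fat, with no member at 0 in all libraries. In bulk tissue, fewer cells of a type and less RNA per cell cannot be told apart, and the part of the macrophage RNA in the fat cell results was not tested.

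Among 17 tested adipokine genes, 11 fell and 3 rose (median -1.11). The falls numbered 7 without WT 3. Rbp4, the retinol carrier, was at 3109.6, 2007, 3259.5 and 3085 in KO fat and 12747, 17161 and 15894 in WT fat (log2 fold change -2.43, SE 0.19, limma adjusted p = 0.000678). Lep, the leptin gene, fell (-1.11, not passed when KO 1, KO 2, KO 4, WT 1 or WT 3 was left out). The rises were of Il33, an alarmin of stromal cells (log2 fold change 1.31, SE 0.21, limma adjusted p = 0.00291), of Metrnl (log2 fold change 1.80) and of Fgf21 (1.11, not passed when KO 1, KO 2, KO 3, KO 4, WT 3 or WT 4 was left out). Nampt did not pass, and its log2 fold change was 0.02 (SE 0.10).

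Of 22 adipocyte transcription factors, 12 fell and none rose (median -0.62). Pparg, the master regulator of the fat cell, fell 1.96-fold and Cebpa, its partner, 1.75-fold, both stable. Klf15 was at 553.0, 374.3, 653.7 and 503.9 in KO fat and 1452, 2369 and 1914 in WT fat (log2 fold change -1.87, SE 0.22, limma adjusted p = 0.00122). Rxra, which pairs with PPARgamma on DNA, fell 2.09-fold, and Srebf1, which drives lipogenic genes, 2.29-fold, both with stable calls. Members that did not pass included Klf9, at a log2 fold change of 0.03, and Cebpb, at 0.45.

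Genes of fat synthesis fell together: 20 of 24 fell, 1 rose and the median was -1.30. Scd1, the desaturase that makes oleate, held 2.81% to 5.54% of the gene reads of WT fat and stood at 202992, 130191, 422371 and 183262 in KO fat against 1057840.0, 938425 and 1849980.0 in WT fat (log2 fold change -2.53, SE 0.55, limma adjusted p = 0.0092). Under quantile normalisation Scd1 did not pass (log2 fold change -1.35, limma adjusted p = 0.0808). Fasn, the fatty acid synthase, was at 25123, 34495, 70240.1 and 49838 against 163077, 127024 and 165217 (log2 fold change -1.85, SE 0.36, limma adjusted p = 0.00552). In both, KO 3 was the KO library nearest to WT fat and still lay below it. Thrsp, a regulator of lipogenesis, fell 5.55-fold, Dgat2, which completes triglyceride, 3.17-fold, and Me1, the malic enzyme, 2.41-fold, each stable. The single rise was of Elovl3, an elongase, at 1.69 on the log2 scale, not passed when KO 4 or WT 3 was left out.

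Coats of the lipid droplet divided. Of 16 tested droplet proteins, 11 fell and 2 rose (median -0.85). Plin4 was at 22504, 20056, 49368 and 34879 in KO fat and 101187, 125413 and 174086 in WT fat (log2 fold change -2.13, SE 0.35, limma adjusted p = 0.00305), and Plin1 and Cidec, the proteins of the large droplet of white fat cells, fell 3.21-fold and 2.90-fold. Plin2, the coat of droplets in most other cells including foam cells, was at 85424, 100500.0, 49500.0 and 64335 against 34216, 19977 and 15460.4 and rose 3.30-fold (log2 fold change 1.72, SE 0.34, limma adjusted p = 0.00595). The other rise was of Hsd17b11 (0.77 on the log2 scale), and Plin3 did not pass (0.42, SE 0.15).

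Lipolysis genes fell in 18 of 21 cases, with none that rose and a median of -1.24. Beside Adrb3 and Lipe, stable falls were seen of Pnpla2, the triglyceride lipase ATGL (2.36-fold), Mgll, the monoglyceride lipase (2.39-fold), and Gnai1 and Prkar2b of the cyclic AMP pathway (2.68-fold and 2.44-fold). Gnas, the stimulatory G protein, did not pass, at -0.17 on the log2 scale. Of 21 genes of lipid uptake, 8 fell and none rose, led by Cav1 and Cav2 of caveolae (3.09-fold and 2.70-fold). Without WT 1, 5 rose. Leaving out KO 2, KO 4 or WT 3 gave 5 falls. Cd36, the fatty acid receptor of adipocytes and macrophages alike, was at 267423, 227362, 192076 and 215241 in KO fat and 201011, 206232 and 195595 in WT fat, with overlapping groups (0.16, SE 0.30, limma adjusted p = 0.723).

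Insulin signalling genes fell in 15 of 24 cases and rose in 3 (median -0.84). Irs3, an insulin receptor substrate of rodent fat, was at 512.2, 428.3, 730.0 and 570.4 against 1701, 1566 and 1588 (log2 fold change -1.55, SE 0.18, limma adjusted p = 0.00105). The receptor Insr fell 2.10-fold, Irs1 2.72-fold, the kinase gene Akt2 2.02-fold and the glycogen synthase gene Gys1 2.70-fold, all stable. Akt1 rose (log2 fold change 0.58, not passed when WT 3 was left out), as did Tbc1d1 (0.70) and Ptpn1, a phosphatase of the insulin receptor (0.91, not passed when WT 3 was left out).

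**Figure D2:**
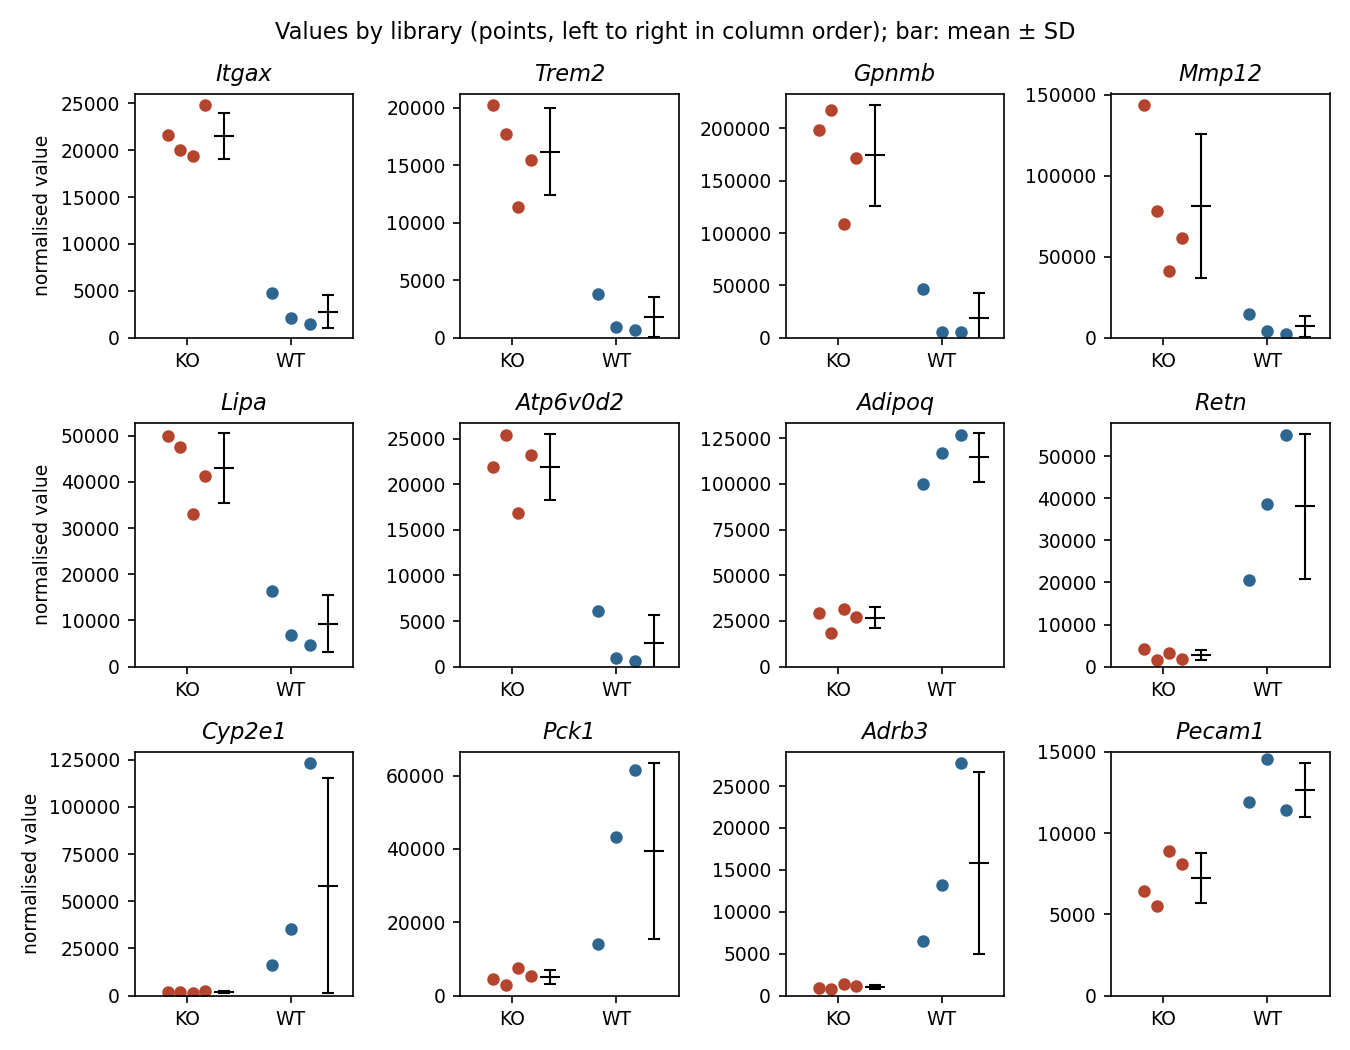
Normalised value (y axis, from 0) of 12 genes in each of the 4 KO (red) and 3 WT (blue) libraries, with points in column order and, beside them, the mean and SD (bars run down to 0 where the SD exceeds the mean). In every panel all KO points lie on one side of all WT points, above them for Itgax, Trem2, Gpnmb, Mmp12, Lipa and Atp6v0d2, and below them for Adipoq, Retn, Cyp2e1, Pck1, Adrb3 and Pecam1.

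Mitochondrial pathways of the fat cell were lower to unequal degrees. The breakdown of branched-chain amino acids, a route of fuel in white fat, had 20 of 23 genes that fell, 15 of them stable, none that rose and a median of -1.10. Mut, the methylmalonyl-CoA mutase, was at 2491, 2229, 2609 and 2234 in KO fat and 5294, 6200.2 and 5912 in WT fat (log2 fold change -1.28, SE 0.11, limma adjusted p = 0.000709). Dbt of the branched-chain dehydrogenase fell 2.51-fold, Hibch 2.86-fold and Pcca of propionyl-CoA carboxylase 2.42-fold, while Bckdk, the kinase that restrains the dehydrogenase, did not pass (-0.19, SE 0.12).

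Of 26 citric acid cycle genes, 20 fell (median -0.56). A fit without WT 3 gave 13 falls. Pcx, pyruvate carboxylase, had the largest fall of the list, at 15709, 13525, 25637 and 16680.3 against 48354, 47870.3 and 54169 (log2 fold change -1.53, SE 0.23, limma adjusted p = 0.00218). Fatty acid oxidation had 19 of 25 genes that fell and 1 that rose (median -0.58). These falls came to 12 without WT 3. Ehhadh of the peroxisome fell 2.96-fold and Eci1 2.05-fold, while Hadha, of the mitochondrial trifunctional protein, did not pass (0.35, SE 0.12). The 1 rise was of Cpt1a, which admits fatty acids to mitochondria (0.44, not passed when KO 2, KO 4, WT 3 or WT 4 was left out).

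The respiratory chain showed the smallest median shift of these 4 pathways, with 10 of 30 genes that fell, 1 of them stable, and a median of -0.46. The falls numbered 24 without KO 1, 1 without KO 2, KO 4, WT 3 or WT 4 and 6 without KO 3. The stable fall was of Ndufa10, a complex I subunit, at 2855, 2556, 2759 and 2484 against 3765, 3464 and 4043 (log2 fold change -0.50, SE 0.11, limma adjusted p = 0.00867). Cox4i1 did not pass, and KO 1, at 13581, lay within the WT range of 11308, 11828 and 14479 while the other 3 KO libraries lay below it.

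Genes of thermogenic fat did not move as 1 group: of 17 tested, 4 rose and 1 fell (median 0.22). Ucp1, the uncoupling protein of brown fat, was low, at 30.9, 23.7, 9.08 and 10.1 in KO fat and 2.58, 3.91 and 2.06 in WT fat. Its log2 fold change was 2.19 (limma adjusted p = 0.016). Ucp1 reached a value of 10 in KO 1, KO 2 and KO 4 alone. It thus entered the test only through KO fat, and was not tested when 1 of these was left out. Ckb, a creatine kinase of brain and beige fat, was at 7376, 8489, 4260.1 and 5650.5 against 2022, 1160.2 and 1181 (log2 fold change 2.15, SE 0.28, limma adjusted p = 0.00144), and Gatm, of creatine synthesis, rose 3.32-fold. Without KO 4, 2 of the 4 rises were left, and without KO 3, 3 genes fell. Cidea (0.32), Prdm16 (-0.61) and Ppargc1a (-0.89) did not pass.

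The falls of largest size also included genes outside these pathways. Cyp2e1, a cytochrome P450 that oxidises ethanol and ketones, was at 1881, 2073, 1256 and 2393 in KO fat and at 16499.8, 35061 and 123278 in WT fat (log2 fold change -4.49, SE 0.58, limma adjusted p = 0.00145). The carbonic anhydrase gene Car3, among the most abundant transcripts of mouse fat, was at 68249, 68954, 106020.0 and 77651 against 461610.0, 595607 and 630197 (log2 fold change -2.82, SE 0.32, limma adjusted p = 0.00101). WT 1 was the lowest WT library for both genes and WT 4 the highest. Syt12, a synaptotagmin, fell 8.94-fold, Bche, butyrylcholinesterase, 6.75-fold, the imprinted genes Peg3 and Plagl1 6.58-fold and 6.36-fold, Ces1d, a lipid esterase, 5.85-fold, and Aoc3, an amine oxidase of adipocytes, 3.97-fold.

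Macrophage genes were among the largest gains. Itgax, the CD11c integrin gene (GRCm38 chromosome 7, bases 128129547 to 128150657, plus strand), was at 21672, 20012, 19394 and 24861 in the KO libraries and at 4800.3, 2137 and 1414 in the WT libraries (log2 fold change 3.13, SE 0.35, limma adjusted p = 0.00105). Trem2, a lipid-sensing receptor of macrophages (GRCm38 chromosome 17, bases 48346401 to 48354147, plus strand), was at 20226, 17728, 11328 and 15421 against 3783, 941.1 and 685.7 (log2 fold change 3.55, SE 0.52, limma adjusted p = 0.00211). All KO libraries stood above the highest WT library, WT 1, for both genes. The summed level of the 26 adipocyte identity genes was 683396 to 949224 in KO fat and 1814094 to 2108441 in WT fat, and its part in the macrophage results was not tested.

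Of 25 genes of macrophage identity, 19 rose and 1 fell, with 8 stable rises and a median of 1.74. Emr1, the older symbol of the F4/80 gene Adgre1, was at 36923, 37945, 26471 and 30797 in KO fat and 10650.0, 5013 and 2587 in WT fat (log2 fold change 2.66, SE 0.41, limma adjusted p = 0.00244). The signalling adaptor gene Tyrobp rose 5.42-fold and Sirpa, the receptor of CD47, 4.48-fold, both stable. Csf1r, the receptor on which macrophages depend, rose by 1.41 on the log2 scale. The fall was of Lyz1, a lysozyme with a near-identical neighbour Lyz2, so that reads may have been divided between them. Lyz1 was at 870.9, 385.1, 519.3 and 611.7 against 1504, 2422 and 2107 while Lyz2 rose (1.61). Ccr2, which brings monocytes from blood, was at 2703, 3247, 2423 and 2791 in KO fat and 6248, 4639 and 2621 in WT fat and did not pass (limma adjusted p = 0.107), nor did Cx3cr1 (-0.02).

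Lipid-associated macrophage genes rose in 16 of 22 cases, 11 of them stable, and fell in 1 (median 1.91). Gpnmb, a membrane glycoprotein of lysosome-rich macrophages, was at 198772, 218025, 108237 and 171855 in KO fat and 46331, 5401 and 5138 in WT fat (log2 fold change 3.95, SE 0.72, limma adjusted p = 0.00456). The elastase gene Mmp12 was at 143539, 78345, 40917 and 61275 against 14458, 4327 and 2466 (log2 fold change 3.76, SE 0.61, limma adjusted p = 0.00285). WT 1 stood well above the other 2 WT libraries for both genes and below every KO library. Lgals3, galectin-3, rose 6.56-fold, the tetraspanin gene Cd9 4.30-fold and Nceh1, which hydrolyses cholesterol esters, 7.09-fold. Spp1, osteopontin, had a wide spread, at 9206, 33576, 4585 and 10483 against 7372, 247.5 and 285.6 (log2 fold change 3.77, SE 1.16, limma adjusted p = 0.0359, not passed when KO 1, KO 2, KO 4, WT 3 or WT 4 was left out), and edgeR on the recovered reads did not call it (adjusted p = 0.159). The fall was of Fabp4, which is also a fat cell gene (-0.96, not passed when KO 1, KO 2, KO 4, WT 3 or WT 4 was left out), and Apoe did not pass (0.30, SE 0.27).

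Genes ascribed to resident and type 2 macrophages divided, with 7 of 26 that rose, 10 that fell and a median of -0.55, or -0.32 without WT 1, -0.33 without WT 3 and -0.97 without WT 4. Without WT 3, 4 rose. Leaving out WT 3 gave 6 falls. The falls numbered 14 with library weights and as many without WT 4. The summed level of the list, in which genes of high value weigh most, went the other way. It was 243826 to 272829 in KO fat and 130103 to 197994 in WT fat, without overlap. Retnla, the type 2 marker also called Fizz1, was at 6841, 2575, 3689.9 and 2913 in KO fat and 23430.1, 27353 and 13764 in WT fat (log2 fold change -2.48, SE 0.36, limma adjusted p = 0.00201). Mgl2, the lectin CD301b, fell 4.94-fold, and Cd209d, a lectin of the DC-SIGN family, 5.62-fold, both stable, as were the falls of Ccl24 (2.89-fold) and Cbr2 (2.28-fold). The Cd209 genes lie in a family of close copies, and reads may have been divided among them. Stable rises were of Vsig4, a complement receptor (3.95-fold), Folr2, a folate receptor (3.45-fold), Stab1, a scavenger receptor (2.59-fold), and Pf4 (2.11-fold). Mrc1, the mannose receptor CD206, also rose (1.29 on the log2 scale, not passed when KO 2, WT 3 or WT 4 was left out). Lyve1 (-0.95, not passed when WT 3 was left out) and Timd4 (-1.33, not passed when KO 2, KO 3, KO 4, WT 1 or WT 3 was left out), markers of long-lived resident macrophages, fell, and Cd163 did not pass (-0.69, limma adjusted p = 0.068).

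**Figure D3:**
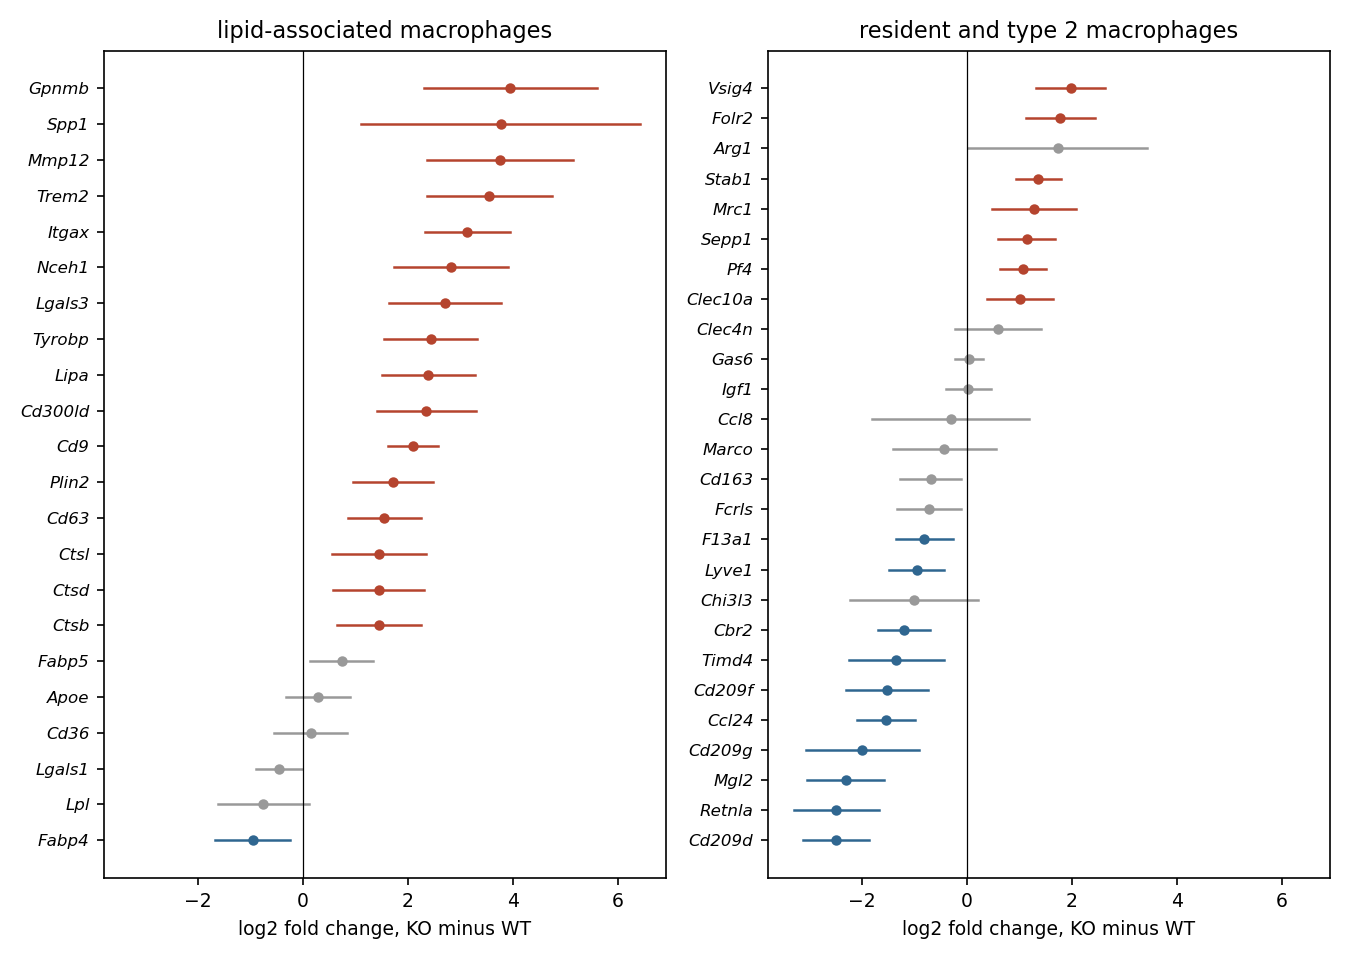
Log2 fold change (KO minus WT, x axis) with its 95% confidence interval for each tested gene of the lipid-associated macrophage list (left, 22 genes) and of the resident and type 2 macrophage list (right, 26 genes), red for genes that rose, blue for those that fell and grey for those that did not pass. On the left 16 genes rose and 1 fell, and on the right 7 rose and 10 fell, with Cd209d, Retnla and Mgl2 at the lower end and Vsig4 at the upper.

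Genes of osteoclasts and fused macrophages rose in 9 of 15 cases and fell in 2 (median 1.15). Ctsk, the collagen-degrading cathepsin, was at 22875, 16836, 15747 and 16101 in KO fat and 4221, 1602 and 1700.3 in WT fat (log2 fold change 2.97, SE 0.33, limma adjusted p = 0.000982). Atp6v0d2, a proton pump subunit required for macrophage fusion, was at 21883, 25429.7, 16896 and 23194 against 6125, 914.7 and 654.8 (log2 fold change 3.81, limma adjusted p = 0.0038). Tm7sf4, the older symbol of the fusion receptor DC-STAMP, rose 6.79-fold, Siglec15 30.3-fold and Tnfrsf11a, the receptor RANK, 5.15-fold, all stable. Of the 2 falls, Acp5, the tartrate-resistant phosphatase, fell 1.80-fold and Mmp9 2.62-fold, both stable.

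Lysosomal genes rose broadly. Of 42 hydrolases and their cofactors, 31 rose, 20 of them stable, and 2 fell (median 0.90). Of 27 tested genes of the lysosomal membrane and proton pump, 20 rose and none fell (median 0.93). A fit without WT 3 gave 13 rises. Lipa, the acid lipase that frees cholesterol and fatty acids from ingested lipid, was at 49993, 47511, 33149 and 41304 in KO fat and 16339.8, 6889 and 4663 in WT fat (log2 fold change 2.40, SE 0.38, limma adjusted p = 0.0028). Lgmn, legumain, rose 4.93-fold and Gla, alpha-galactosidase A, 4.97-fold. Psap, the precursor of the saposins and the top gene by reads in KO 1 and KO 2, was at 406337, 385521, 224099 and 285091 against 170749, 102420.0 and 79129 (log2 fold change 1.51, limma adjusted p = 0.0199, not passed when WT 3 was left out). In the pump, Tcirg1, the subunit of osteoclasts and macrophages, rose 4.78-fold and Atp6v1a, the catalytic subunit, 2.74-fold. Subunits that did not pass included Atp6v0d1 (0.14) and Atp6v1e1 (-0.05). The falls were of Acp5 and of Smpd1, acid sphingomyelinase (1.74-fold).

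Promoters were read because these genes moved together. Many lysosomal genes are known to carry the CLEAR element, bound by TFEB and its relatives, and Mitf of that family rose 3.45-fold in KO fat (log2 fold change 1.79, SE 0.19, limma adjusted p = 0.000939). No values were found under the symbols Tfeb and Tfe3 of that family, or Spi1, the gene of the macrophage factor PU.1. The part of any of these factors was not tested. The core of the CLEAR element was searched as TCACGTGA, which reads the same on both strands, in RefSeq windows of 250 bases before to 50 after each start site on GRCm38.p6. Of 70 genes of the 2 lysosomal lists 56 matched, with 68 promoters, and the core was in 8 of these (11.8%), in 1.65% of 14448 promoters of tested genes (11351 of 14455 genes matched), in 1.79% of 783 promoters of genes that rose stably by 2-fold or more and in 0.974% of all 32851 promoters. Of the 8 genes, Ctsa, Ctsd, Gla, Atp6v1a, Clcn7 and Mcoln1 rose, and Atp6v0d1 and Atp6v0e did not pass. GAGGAAGT, a site of the macrophage factor PU.1 searched on both strands, was in 6.13% of 783 promoters of genes that rose stably by 2-fold or more, in 1.79% of 782 promoters of genes that fell so, and in 3.20% of all promoters. It was in 1 of 19 promoters of the macrophage identity list (17 of 25 genes matched) and 4 of 20 of the lipid-associated list (16 of 22 matched). In the lysosomal lists it was in 4 of 68 promoters. TCACGTGA was in 0 of 19 promoters of the macrophage identity list and 1 of 20 of the lipid-associated list. In the sets of genes that rose and fell 587 of 750 and 591 of 776 genes matched. These matches, those of the macrophage lists and that over tested genes are under 80%, so the comparison of shares with these sets is void as a check for either motif. The motifs do not overlap in these sequences, and a match describes letters, not binding. The 250 bases before the start site are given for 3 lysosomal genes that rose, with the TCACGTGA core in capitals, and for 3 macrophage genes that rose, with the PU.1 site in capitals (ACTTCCTC where it lies on the opposite strand), each 5′ to 3′ along its gene.
Ctsd (chr7:142387828-142388077, minus strand): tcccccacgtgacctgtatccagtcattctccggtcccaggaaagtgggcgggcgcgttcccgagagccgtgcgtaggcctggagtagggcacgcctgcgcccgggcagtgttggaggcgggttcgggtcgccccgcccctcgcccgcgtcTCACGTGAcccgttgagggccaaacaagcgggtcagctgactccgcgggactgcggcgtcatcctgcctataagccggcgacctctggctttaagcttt
Gla (chrX:134601006-134601255, minus strand): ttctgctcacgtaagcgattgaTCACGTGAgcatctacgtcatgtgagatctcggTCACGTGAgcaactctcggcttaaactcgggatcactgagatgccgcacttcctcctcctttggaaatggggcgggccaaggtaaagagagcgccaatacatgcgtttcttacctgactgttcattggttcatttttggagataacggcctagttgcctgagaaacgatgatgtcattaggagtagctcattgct
Atp6v1a (chr16:44139260-44139509, minus strand): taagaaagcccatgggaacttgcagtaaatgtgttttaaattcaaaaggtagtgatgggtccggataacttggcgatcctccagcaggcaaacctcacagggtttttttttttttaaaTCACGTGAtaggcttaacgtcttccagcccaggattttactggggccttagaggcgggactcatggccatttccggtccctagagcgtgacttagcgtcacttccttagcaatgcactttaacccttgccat
C1qc (chr4:136892915-136893164, minus strand): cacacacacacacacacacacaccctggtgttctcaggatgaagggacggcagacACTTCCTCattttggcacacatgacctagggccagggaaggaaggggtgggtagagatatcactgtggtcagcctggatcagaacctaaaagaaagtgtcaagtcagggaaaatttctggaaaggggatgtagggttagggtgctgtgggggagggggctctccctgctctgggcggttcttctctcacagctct
Nceh1 (chr3:27182754-27183003, plus strand): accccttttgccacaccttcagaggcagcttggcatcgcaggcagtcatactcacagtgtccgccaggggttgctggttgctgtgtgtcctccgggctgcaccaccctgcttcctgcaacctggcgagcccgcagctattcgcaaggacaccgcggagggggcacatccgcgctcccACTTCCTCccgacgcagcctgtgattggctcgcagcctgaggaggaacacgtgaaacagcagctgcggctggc
Mmp12 (chr9:7344147-7344396, plus strand): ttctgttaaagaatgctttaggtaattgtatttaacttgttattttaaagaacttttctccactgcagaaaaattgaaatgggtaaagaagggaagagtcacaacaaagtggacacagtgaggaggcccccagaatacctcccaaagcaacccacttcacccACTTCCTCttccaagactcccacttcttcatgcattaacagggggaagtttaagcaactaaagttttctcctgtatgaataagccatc

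Gla carried the core at 2 places and Ctsd and Atp6v1a at 1 each in these stretches. The Gla stretch also holds the PU.1 site on the opposite strand, left in small letters. Their log2 fold changes were 2.31, 1.45 and 1.45, Ctsd with a call that was not stable, not passed when WT 3 was left out. C1qc, Nceh1 and Mmp12 rose by 1.89, 2.83 and 3.76 on the log2 scale.

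Receptors that start and receptors that restrain myeloid signalling were both among the rises. Of 22 activating receptors and their partners, 13 rose and 1 fell (median 2.04), among them Fcgr3 (4.24-fold) and the lectin receptor gene Clec4d (8.35-fold). Of 21 inhibitory receptors, 14 rose and none fell (median 1.86). Lair1, a collagen receptor, was at 3942, 3711, 2944 and 4068 in KO fat and 1112, 475.4 and 244.4 in WT fat (log2 fold change 2.84, SE 0.43, limma adjusted p = 0.00224). Clec12a rose 8.36-fold, Lilrb4 6.17-fold and Cd300a 5.97-fold, all stable, and Cd72 rose 17.2-fold. Cd33 (-0.11) and Pilra (0.11) did not pass. Several of these receptors belong to families of close copies, where reads may have been divided.

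Of 14 tested leukocyte integrins, 8 rose and 1 fell. Itgad rose 9.63-fold beside Itgax. The fall was of Itgae, the CD103 chain of some dendritic and resident T cells, which was at 34.2, 31.3, 83.5 and 44.3 against 134.2, 177.1 and 262.9 (log2 fold change -2.02, SE 0.38, limma adjusted p = 0.00514). In the MS4A family 4 of 10 rose, led by Ms4a7 (8.43-fold), and 1 fell. Of 19 scavenger receptors, 9 rose and 1 fell (4 fell without WT 4), with Msr1 up 5.38-fold and Stab2 8.61-fold. Cholesterol handling was mixed: 6 of 18 rose and 1 fell, with Soat1, which esterifies cholesterol for storage, at 8059, 9536, 5533 and 7963 in KO fat and 2927, 1179 and 853.8 in WT fat (log2 fold change 2.41, SE 0.38, limma adjusted p = 0.00272). Abcg1, an exporter, rose (1.67), Abca1 did not pass (-0.18), and Apoc1 fell 3.85-fold.

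Chemokines moved in part. Of 25 tested, 8 rose and 1 fell (median 0.15, or 0.27 without KO 2, 0.30 without WT 1, 0.54 without WT 3 and -0.01 without WT 4). Ccl3, which draws monocytes, was at 479.1, 373.3, 306.9 and 229.8 in KO fat and 110.1, 32.3 and 19.6 in WT fat (log2 fold change 2.99, SE 0.53, limma adjusted p = 0.00409). Cxcl14 rose 6.81-fold and Cxcl16 2.75-fold. Ccl2, the main monocyte chemokine of fat, did not pass (0.57, SE 0.59, limma adjusted p = 0.483), and neither did Ccl5 (0.67) or Cxcl12 (-0.17). Among 16 tested receptors 3 rose (18.8%, near the share of all genes) and 1 fell, the fall being of the scavenging receptor Cxcr7, 1.96-fold.

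Of 27 tested inflammatory genes, 16 rose and 2 fell (median 1.12). Subunits of the phagocyte oxidase were among the rises, with Cybb, Cyba, Ncf1 and Ncf4 up by 1.91, 1.93, 1.73 and 1.92 on the log2 scale. Tnf rose (1.48, not passed when KO 1, KO 2, KO 3, KO 4 or WT 3 was left out), as did Il10 (2.46) and Il1rn, the antagonist of interleukin 1 (2.94, not passed when WT 3 was left out). Casp1 rose 3.13-fold and Tlr7 4.11-fold, both stable. Il1b was at 43.1, 104.6, 21.8 and 17.1 in KO fat and 64.5, 37.2 and 15.5 in WT fat and did not pass (0.11, SE 0.68), nor did Il6 (0.29) or Ptgs2 (-0.59). The falls were of Nos2 (-1.43, not passed when KO 1, KO 2 or WT 3 was left out) and Lif (-0.90, not passed when KO 1, KO 2, KO 4, WT 1, WT 3 or WT 4 was left out).

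Few lymphocyte genes passed. T cell genes rose in 5 of 23 cases (21.7%, near the 16.8% of all genes), with 1 stable rise, Lat (2.01-fold), and none fell (median 0.29, or 0.13 without WT 1, 0.53 without WT 3 and 0.17 without WT 4). These rises came to 2 without KO 1, KO 3, KO 4, WT 1 or WT 3 and 3 without WT 4. Cd8a was at 184.3, 112.2, 180.7 and 126.0 in KO fat and 32.7, 97.8 and 73.2 in WT fat (1.24, limma adjusted p = 0.0346, not passed when KO 1, KO 3, KO 4 or WT 1 was left out), and Cd3e at 89.4, 55.0, 103.5 and 61.5 against 54.2, 93.9 and 45.4 did not pass. Of 18 tested NK and cytotoxic genes, none rose and 1 fell, Klrg1 (-1.45, not passed when KO 1, KO 2, KO 3, KO 4, WT 3 or WT 4 was left out). In the B and plasma cell list 4 of 21 rose (19.0%, near the share of all genes) and 1 fell. Cd79a (0.48) and Ms4a1 (0.12), which mark B cells, did not pass, the fall was of Ebf1, also a fat cell factor, and Cd72 and Cd22 stand in the inhibitory list as well. The summed level of T cell genes was 1658 to 2650 in KO fat and 1684 to 2556 in WT fat, so the groups overlapped. That of NK and cytotoxic genes overlapped too, at 876.0 to 1821 and 901.2 to 1572. That of the B and plasma cell list, Cd72 and Cd22 included, did not overlap, at 22241 to 28229 in KO fat and 14915 to 15988 in WT fat.

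Mast cell, basophil and eosinophil genes rose in 11 of 19 tested cases, 3 of them stable, and none fell (median 1.94). Cpa3, the mast cell carboxypeptidase, was at 5164, 1201, 2957 and 1656 in KO fat and 146.2, 321.8 and 669.2 in WT fat (log2 fold change 2.89, SE 0.59, limma adjusted p = 0.00731). Cma1, chymase, was at 3877, 829.6, 1929 and 1051 against 98.9, 267.1 and 559.9 (2.70), and the tryptase genes Tpsb2 and Tpsab1, near copies of each other, rose as well (2.88, and 2.85, not passed when KO 1, KO 3, KO 4, WT 1 or WT 3 was left out). Every KO library lay above every WT library for Cpa3 and Cma1. Kit, the receptor of mast cells, did not pass (-0.31), and neither did the eosinophil genes Prg2 (0.38) and Il5ra (-0.55).

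Dendritic cell genes showed no common direction, with 3 of 20 tested that rose (1 without KO 1 or WT 3) and 4 that fell. These are 15% and 20%, near the shares of all genes. The median of the list was -0.13, or 0.03 without WT 3 and -0.32 without WT 4. Cd209a fell 3.63-fold, Dpp4 1.78-fold and Zbtb46, a factor of conventional dendritic cells, by 0.63 on the log2 scale, not passed when KO 1, KO 2, KO 4, WT 1, WT 3 or WT 4 was left out. Cadm1, an adhesion molecule of cross-presenting dendritic cells and other cells, was at 4955, 4835, 5339 and 5611 against 792.3, 290.5 and 365.0 (log2 fold change 3.56, SE 0.30, limma adjusted p = 0.000678), whereas Clec9a (0.73) and Xcr1 (0.15) did not pass. Of 11 tested neutrophil genes 2 rose (18.2%, near the share of all genes) and 1 fell, and 9 more were below the level tested. The rises numbered 0 without KO 2, KO 4, WT 3 or WT 4. MHC class II genes rose in 5 of 16 cases (median 0.67, or 0.29 without WT 4), with Cd40 up 1.98-fold, while Cd74 (0.68, limma adjusted p = 0.149) and H2-Aa (0.74) did not pass. In MHC class I presentation 1 of 16 rose, H2-T23 (0.58, not passed when KO 4, WT 1 or WT 4 was left out), and none fell, while 1 fell without WT 1 or WT 4 and 11 with library weights.

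Interferon-stimulated genes did not rise in any of 29 tested cases, and 5 fell (17.2%, a share near that of all genes), with a median of -0.30, or -0.12 without WT 3 and -0.46 without WT 4. Without KO 2, KO 3, KO 4, WT 1 or WT 3, 3 fell. With library weights 22 fell (75.9%, where 4389 of 14455 genes fell). Gbp3 and Gbp7, guanylate-binding proteins with close copies, fell 2.06-fold and 2.19-fold, and Ifi27l2a was at 13922, 10443, 13137 and 12641 in KO fat and 24138, 39264 and 38883 in WT fat (log2 fold change -1.42, SE 0.21, limma adjusted p = 0.00212). Complement genes went both ways, 11 of 24 up and 7 down: the anaphylatoxin receptors C3ar1 and C5ar1 rose 7.45-fold and 6.03-fold, C6 fell 4.75-fold, and Cfd, the adipocyte protease adipsin, was at 4632, 2138, 5029 and 4515 against 18722, 37967 and 149474 (-3.61, limma adjusted p = 0.00389).

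In the PD-1 pathway, 8 of 14 tested genes rose and 1 fell (median 0.79), and Pdcd1lg2, the gene of the other PD-1 ligand, was below the level tested. Pdcd1 was at 89.4, 47.5, 58.1 and 40.3 in KO fat and 27.5, 27.4 and 30.9 in WT fat (0.95, limma adjusted p = 0.0456, not passed when KO 1, KO 2, KO 3, WT 1, WT 3 or WT 4 was left out). Havcr2, the receptor TIM-3, rose (2.35), as did Tigit (1.29, not passed when KO 1, KO 2, KO 3, WT 1 or WT 4 was left out) and Cd80, which can bind PD-L1 on the same cell (1.15). Lag3 was at 141.3, 103.6, 130.7 and 104.8 against 329.5, 349.2 and 297.0 and fell (log2 fold change -1.44, SE 0.18, limma adjusted p = 0.00132). The only stable rises among the 14 were of Sirpa and of 4632428N05Rik, the gene of the checkpoint VISTA (1.68-fold).

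**Figure D4:**
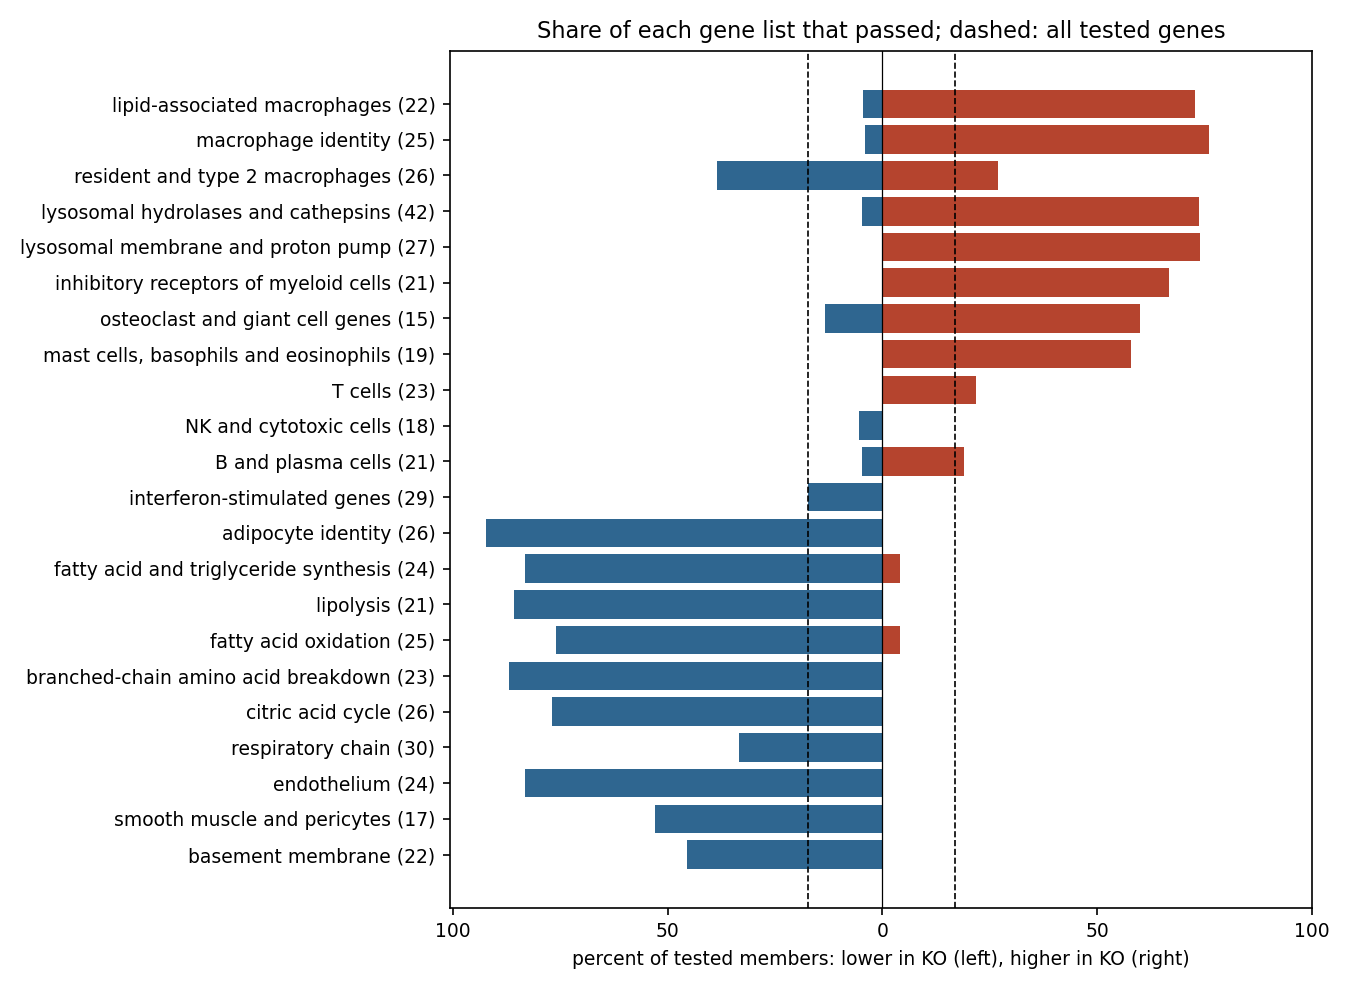
Percent of the tested members of 22 gene lists (number tested in brackets) that rose in KO fat (red, to the right) or fell (blue, to the left), with dashed lines at the shares over all tested genes, 16.8% and 17.4%. The macrophage identity, lipid-associated and lysosomal lists reach far to the right. The resident and type 2 macrophage list reaches 26.9% to the right and 38.5% to the left. Fat cell, endothelial and most mitochondrial lists reach far to the left, and the respiratory chain 33.3%. The lists of T cells, B and plasma cells and interferon-stimulated genes stay at or below 21.7% on either side.

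Genes of blood vessels fell too, in the same libraries in which fat cell genes were lower and macrophage genes higher, whose part in this result was not tested. Of 24 endothelial genes, 20 fell, 12 of them stable, none rose and all 24 had a log2 fold change below 0 (median -1.15). Nos3, the endothelial nitric oxide synthase, was at 844.5, 668.9, 1363 and 1227 in KO fat and 3297, 3456 and 3650.1 in WT fat (log2 fold change -1.81, SE 0.24, limma adjusted p = 0.00145). Kdr, the main VEGF receptor, fell 2.60-fold, Tie1 2.24-fold and the water channel gene Aqp1 2.34-fold, while Plvap (-0.40) and Cd34 (-0.33) did not pass. Vegfa, their growth factor, fell 3.34-fold and Vegfb 2.44-fold, both stable. Of 8 tested lymphatic genes 2 fell (none without WT 3) and 1 rose, and Prox1 did not pass (-0.83).

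Smooth muscle and pericyte genes fell in 9 of 17 cases, with none that rose (median -0.98). Leaving out WT 3 gave 4 falls. Acta2, smooth muscle actin, was at 4415, 2493, 4216 and 4590.3 in KO fat and 14852, 13307 and 9176 in WT fat (log2 fold change -1.67, SE 0.25, limma adjusted p = 0.00221), and Rgs5 and Mcam, pericyte genes, fell 3.31-fold and 3.48-fold. Pdgfrb, which marks pericytes and fibroblasts, did not pass (0.20, SE 0.16). Mesothelial genes, from the lining of the fat, fell in 8 of 17 cases, but 1 fall, of Msln, was stable. A fit without KO 1 gave 3 falls, and 1 without KO 2 or WT 3 gave 1, and 1 without KO 4 or WT 4 gave 2.

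Progenitor and fibroblast genes showed no common direction, with 6 of 28 up and 4 down, shares near those of all genes (median 0.15, or 0.29 without WT 1). These rises came to 3 without KO 2. The falls numbered 2 without WT 3. Pdgfra, the progenitor receptor, rose 1.75-fold (log2 fold change 0.81, SE 0.13, limma adjusted p = 0.00294), Bmp7 fell 2.89-fold, and Dpt was at 20634, 15706, 18396 and 17868 in KO fat and 16108, 19295 and 21004 in WT fat, with a 95% interval of the log2 fold change from -0.41 to 0.31. Of 17 tested matrix collagens 3 rose (17.6%, near the share of all genes) and 1 fell (median 0.48, or 0.74 without WT 1 and 0.17 without WT 4). Without WT 1, 8 collagens rose, and 6 did so by DESeq2, 5 under quantile normalisation and 9 with library weights. Col1a1, Col1a2 and Col3a1, chains of fibrillar collagens, did not pass, at 0.95, 0.84 and 0.88 on the log2 scale with limma adjusted p of 0.0905, 0.0564 and 0.132. They passed without WT 1 (limma adjusted p = 0.0377, 0.024 and 0.0343), by DESeq2 (adjusted p = 0.0336, 0.00803 and 0.0425) and with library weights (limma adjusted p = 0.00529, 0.0027 and 0.014), and Col1a1 and Col1a2 under quantile normalisation too. On simulated counts with known changes, 38.4% of DESeq2's calls were false, against 7.41% of limma's. Only 200 of 14623 genes were changed there and far more were called in the fat libraries, so these rates may not hold for them.

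Basement membrane genes fell in 10 of 22 cases and none rose (median -0.74). Without WT 3, 5 fell. Col4a3 and Col4a4, paired chains of collagen IV, fell 7.32-fold and 5.37-fold, while the ubiquitous chains Col4a1 and Col4a2 did not pass (-0.53 and -0.57). Among 27 tested matrix proteases and inhibitors, 15 rose and 6 fell (median 1.31, or 0.86 without WT 4). Mmp3 was at 3448, 2806, 1633 and 1061 in KO fat and 396.6, 241.6 and 123.7 in WT fat (log2 fold change 3.14, SE 0.48, limma adjusted p = 0.00236), Adam8 rose 11.5-fold, and the urokinase gene Plau 2.46-fold. The inhibitors moved apart: Timp4, of fat cells, was at 969.2, 731.4, 1131 and 1043 against 4351, 6647 and 7178 (log2 fold change -2.63, SE 0.21, limma adjusted p = 0.000678), and Timp1 rose (2.92). Of 25 matricellular and fibrosis genes, 8 rose and 1 fell. The count of rises was 5 without KO 2 or KO 3, 4 without KO 4 or WT 4 and 3 without WT 3.

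Cell cycle genes rose in 15 of 38 cases and fell in 1 (median 0.99, or 0.46 without WT 4), with 1 stable rise, of Pcna, the clamp of DNA replication (log2 fold change 1.34, SE 0.22, limma adjusted p = 0.00297). A fit without KO 1 gave 4 rises, and 1 without KO 2 gave 3, and 1 without KO 4 gave 7. In limma without trend 7 rose, and with library weights 24. Mki67, the proliferation marker, was at 2569, 5378, 4539 and 5549 in KO fat and 3620.0, 3364 and 884.7 in WT fat and did not pass (limma adjusted p = 0.161). KO 1 lay below WT 1 and WT 3 in Mki67.

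Stress programmes were divided. Of 22 genes of the integrated stress response, 4 rose and 7 fell, 5 of the falls stable. These rises came to 0 without KO 2, WT 3 or WT 4, 2 without KO 3 and 1 without KO 4. Phgdh, the entry enzyme of serine synthesis, was at 591.7, 350.6, 433.1 and 402.1 in KO fat and 1901, 2948 and 2354 in WT fat (log2 fold change -2.44, SE 0.21, limma adjusted p = 0.000709), and Psat1, the next enzyme, fell 2.11-fold. Gdf15, a stress hormone, rose (1.96, not passed when KO 1, KO 2, WT 3 or WT 4 was left out), and Ddit3 did not pass (0.32). Antioxidant genes fell in 11 of 27 cases and rose in 5: the glutathione transferases Gsta3 and Gstz1 fell 5.96-fold and 3.86-fold and catalase, Cat, 1.93-fold, while Hmox1, which degrades haem, rose (1.87). The rises numbered 3 without KO 2 and 1 without WT 3. Outside that list, Ftl1, the ferritin light chain that stores iron, was at 66142, 55677, 40821 and 46960.3 against 25482, 13829 and 13659 (log2 fold change 1.61, SE 0.27, limma adjusted p = 0.00343).

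Of 27 tested genes of glycolysis and hypoxia, 9 rose and 7 fell. Without WT 3, 4 rose. Hexokinases moved in opposite directions: Hk3, of myeloid cells, was at 8122, 8628, 4526 and 6571 in KO fat and 1760.1, 718.0 and 436.2 in WT fat (log2 fold change 3.04, SE 0.43, limma adjusted p = 0.00194), and Hk2, of insulin-sensitive tissue, fell 2.14-fold. Pfkfb3 fell 2.98-fold and Bnip3 3.07-fold, and the lactate exporter Slc16a3 rose (1.09, not passed when KO 1, KO 2, KO 4, WT 3 or WT 4 was left out). Hif1a did not pass (-0.18). Cholesterol synthesis had 2 of 23 tested genes that rose and 6 that fell. The count of rises was 5 without WT 1 and 0 without WT 3 or WT 4.

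Of 22 immediate early genes, which respond to stimuli and to tissue handling, 7 rose and none fell (median 0.35, or 0.69 without WT 1 and 0.20 without WT 3). A fit without WT 1 gave 13 rises, and 1 without WT 3 gave 4. Atf3, a stress-induced repressor, was at 13757, 10306, 6328 and 9005 in KO fat and 2872, 760.1 and 521.7 in WT fat (log2 fold change 3.18, SE 0.53, limma adjusted p = 0.00321), and Egr2 rose 5.37-fold. Fos (1.25, limma adjusted p = 0.0889), Egr1 (0.09) and Nr4a1 (-0.0016) did not pass. Of 22 heat shock and chaperone genes 4 rose (18.2%, near the share of all genes) and 2 fell. These rises came to 2 without KO 1, 1 without KO 2, KO 3, KO 4, WT 3 or WT 4 and 8 without WT 1. Of 19 clock genes 3 rose and 2 fell, near or below the shares of all genes: Npas2 rose 2.77-fold, Bhlhe41 2.98-fold and Gm129, also called Ciart, 2.36-fold, and without WT 1, 6 rose and 6 fell, while Arntl (0.23), Nr1d1 (-0.88) and Per2 (0.16) did not pass.

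Acute-phase genes made by fat fell in 8 of 20 tested cases and none rose (median -0.69, or -0.37 without WT 1). The falls numbered 5 without WT 3. Serpina3c fell 4.63-fold and Orm1 4.15-fold, both in families of close copies, and Hp and Saa3 did not pass (-0.67 and -0.46). Of 17 tested serpins 8 rose and none fell. Without KO 2, KO 4 or WT 4, 5 rose, and without WT 3, 4. Serpinb9b, of the family of granzyme inhibitors, was at 5639.6, 1213, 483.9 and 607.7 in KO fat and 197.9, 51.8 and 19.6 in WT fat (log2 fold change 4.31, SE 0.96, limma adjusted p = 0.00983), with KO 1 far above the other KO libraries. Ribosomal protein genes rose in 7 of 38 tested cases (18.4%, near the share of all genes) and none fell (median 0.36, or 0.21 without KO 1). The count of rises was 4 without KO 1 or KO 2, 2 without KO 4 or WT 3 and 3 without WT 4.

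Secreted growth factors of the Wnt, BMP and related families fell in 15 of 36 tested cases and rose in 7 (median -0.50). A fit without KO 2 gave 4 rises. These falls came to 8 without WT 3. Nrg4, a hormone of fat cells, fell 3.94-fold, Sfrp5, a secreted Wnt inhibitor of white fat, 3.10-fold and Wnt11 2.25-fold, each stable. Ereg, epiregulin, was at 78.4, 171.5, 49.0 and 57.4 in KO fat and 13.8, 1.96 and 1.03 in WT fat (log2 fold change 4.16, SE 0.72, limma adjusted p = 0.00377).

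**Figure D5:**
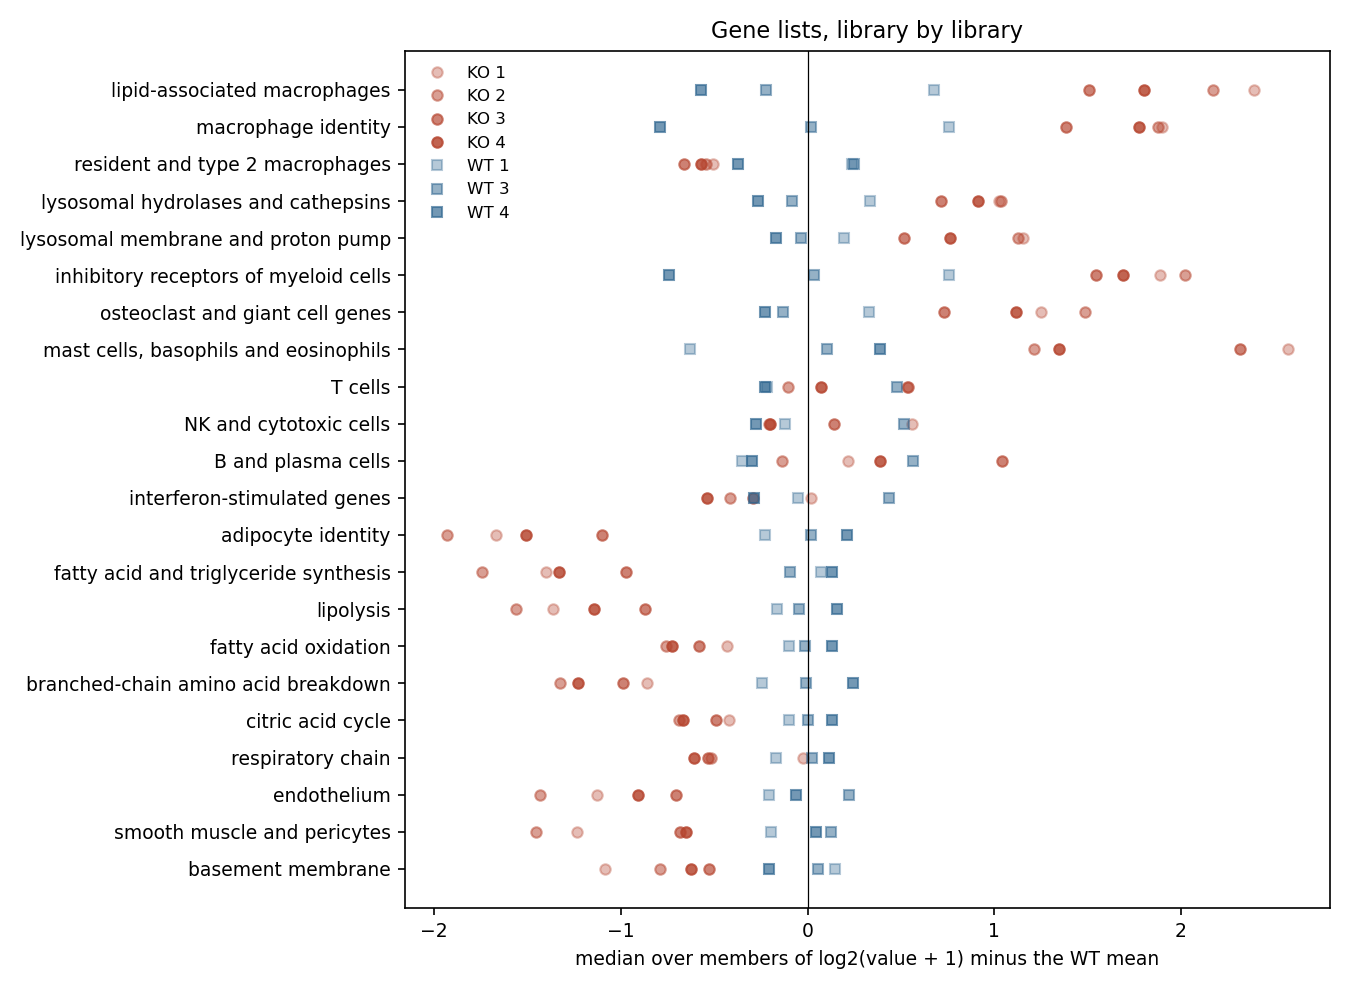
Median over the tested members of each of 22 gene lists of log2(value + 1) minus the WT mean (x axis), drawn for each of the 4 KO (red circles) and 3 WT (blue squares) libraries, darker for later columns. KO libraries stand to the right of all WT libraries in the macrophage identity, lipid-associated and lysosomal lists, and to the left in the adipocyte identity, fat synthesis and lipolysis lists. In the T cell and NK lists the groups overlap, with KO 1 to the right of every WT library in both and KO 3 in the T cell list. WT 1 is the rightmost WT library in the macrophage identity and lipid-associated lists.

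The same medians were read library by library. Over the lipid-associated macrophage list they were 2.39, 2.17, 1.51 and 1.80 in KO 1 to KO 4 and 0.68, -0.22 and -0.57 in WT 1, WT 3 and WT 4. Over the adipocyte identity list they were -1.67, -1.93, -1.10 and -1.51 and -0.23, 0.02 and 0.21. KO 3 was the KO library nearest to WT fat in both lists, and WT 1 the WT library nearest to KO fat in both.

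Genes of the largest rise at a mean of 1000 or more included several outside the lists. Myh15, a myosin heavy chain, was at 1242, 1208, 3005 and 2572 in KO fat and 255.5, 31.3 and 20.6 in WT fat (log2 fold change 5.03, SE 0.78, limma adjusted p = 0.00256), and Fat3, a giant cadherin, rose 22.5-fold. Zranb3, an annealing helicase, was at 6285, 8005, 5514 and 6369 against 827.6, 211.3 and 256.7 (log2 fold change 4.18, SE 0.42, limma adjusted p = 0.000909). Hpgds, which makes prostaglandin D2 in mast cells and macrophages, rose 12.8-fold, Tm4sf19 12.0-fold, Cdk18 12.0-fold, Glipr1 11.6-fold, Dhrs9 11.3-fold and, among the 10 stable rises of largest gain in mean value, Grn, progranulin, 2.46-fold. For Myh15, Fat3 and Zranb3, WT 1 was again the highest WT library and below every KO library.

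Some abundant genes did not pass and had narrow intervals. Glul, glutamine synthetase, was at 34134, 41253, 36666 and 36400.0 in KO fat and 36299.6, 33290.3 and 39043 in WT fat, and the 95% interval of its log2 fold change ran from -0.33 to 0.40. The intervals also stayed within 0.5 of 0 for Hnrnpa2b1 (-0.22 to 0.36), an RNA-binding protein, Ctnnb1, beta-catenin (-0.33 to 0.32), and Tgm2, tissue transglutaminase (-0.43 to 0.20).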

How the data were processed

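RNA sequencing of visceral fat was read from 1 table of gene values by library. Per the submitters' processing notes, CASAVA, TopHat and DESeq2 were used with the build mm10; versions, the counting step and the strand setting are not given in the sources used here. The values are a signal that the authors deposited as counts divided by 1 size factor per library: in each column they are whole multiples of a step between 0.860 and 1.10, and all 117220 values above 0 gave whole reads within 0.001. Counting precision rests on 29362788 to 41534662 reads a library. In the steps taken here, genes reaching a value of 10 in at least 3 of 7 libraries were tested on log2(value + 1) with limma 3.58.1 in R 4.3.3, with a mean-variance trend, 4 KO against 3 WT, with Benjamini-Hochberg adjustment. Alternatives were other pseudocounts (0.5 and 10), filters, scalings and weights, edgeR 4.0.16 and DESeq2 1.42.0 on the recovered reads, a replicate block and leaving out each library.

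The comparison, its members and the gene lists were chosen with earlier results of these data known. Named genes are the markers Itgax, Trem2, Adipoq and Retn with Cd274, the 15 stable calls of largest rise and fall at a mean of 1000 or more, the 10 of largest gain and loss of mean, up to 4 stable calls and 2 abundant members that did not pass in each of 67 lists, and 10 abundant genes with intervals within 0.5 of 0. Of 438 genes, 103 were added for their known role after their values were seen. Lists share members. Coordinates are from GENCODE M21 (GRCm38, the assembly of mm10), to which 14283 of the 14455 symbols matched. Promoter sequences are RefSeq's on GRCm38.p6. The tools were tested on simulated counts of 14623 genes with 4 KO and 3 WT fat libraries. There 200 genes were changed and each library was drawn independently. In these counts limma recovered 61.2% of 2-fold and 89.7% of 4-fold changes, with 7.41% of its calls false. Of edgeR's calls 7.98% were false, and of DESeq2's 38.4%. Far more genes were called in the fat libraries than were changed in the simulation, so these rates may not hold there. The 6 tumour libraries were not used. Some genes are not reported here.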

Additional observations from a re-analysis of the deposited data

Results flagged for a closer look

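In each of 438 named genes the highest or lowest of the 4 KO libraries was set against the other 3 by Dixon's ratio, and 18 stood apart. Chance gives about 1 in 20 groups, and 18 is no more than that. The genes below are therefore given as values and do not show that a library differs. KO 2 was the library apart in 9, KO 1 in 5, KO 3 in 4 and KO 4 in none.

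KO 2 was high for the macrophage genes Fcgr2b (4971 against 3185 to 3275 in the other KO libraries) and Mrc1 (35466 against 21388 to 21574). It was also high for Srebf2, a regulator of sterol genes (4574 against 2825 to 2989), for the clock gene Bhlhe41 (425.1 against 274.9 to 300.3) and for Il6 (35.6 against 6.05 to 9.93). KO 2 was low for Lpl (295900 against 318554 to 322667), Rbp4 (2007 against 3085 to 3259.5), Cd34 (5325 against 8926 to 8946) and the eosinophil gene Prg2 (23.7 against 40.8 to 44.3).

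KO 1 was high for Serpinb9b (5640 against 483.9 to 1213), Ctsk (22875 against 15747 to 16836) and Tnf (150.1 against 116.2 to 120.8), and low for Lrp1 (53352 against 116839 to 129246). For the sperm gene Prm2 it was at 0 against 0.908 to 1.08, which is 0 reads against 1 read in each of the other KO libraries, so the gap is set by single reads and shows no library apart. KO 3 was high for the lipogenic genes Aacs (2106 against 1614 to 1689) and Gpd1 (36235 against 24735 to 25855) and for the collagen chaperone gene Serpinh1 (33228 against 28163 to 28434), and low for Cd209a (109.9 against 178.003 to 185.4).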

How the results depend on the processing

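Of the settings run, library weights gave 4308 rises and 4389 falls against 2430 and 2517. With 1 library left out, rises ranged from 1575 (without WT 3) to 2691 (without WT 1) and falls from 1490 (without WT 3) to 2567 (without KO 1). The other settings, without the replicate block, gave 2298 to 2795 rises and 2379 to 3047 falls, and scaling shifted the median of all genes by 0.0195 (TMM) and -0.0114 (quantile). Column numbers 1, 3 and 4 occur in both groups. Deviations of same-numbered libraries correlated at -0.0116, 0.0607 and 0.247, and those of other KO and WT pairs at -0.233 to 0.299. These are too few values to settle whether the libraries were paired. With the numbers as a replicate block, 1460 genes rose and 1460 fell, and 30 of 281 called named genes did not pass. KO 2 has no WT library of its number, so it did not add to the comparison in that fit.

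No named gene that passed reversed under any of these settings. Of named genes that did not pass, 2 passed by edgeR, 29 by DESeq2, 15 under quantile normalisation and 68 with library weights, and with 1 library left out up to 19 (without WT 1). On the simulated counts 38.4% of DESeq2's calls were false, a rate that may not hold in the fat libraries, where far more genes were called than were changed there. Genes given above as not passing that did so without WT 1 were Plin3, Hadha, Fos, Nr1d1, Arntl and the 3 fibrillar collagen genes (adjusted p from 0.0167 to 0.0396). Ccr2, Cd163 and Saa3 passed without WT 4 (0.00653, 0.0169 and 0.017), Prdm16, Plvap and Nr1d1 without KO 3 (0.0428, 0.0435 and 0.032), and Hadha and Cox4i1 without KO 1 (0.0472 and 0.0256). Outside the block and left-out libraries, calls ended for Tigit (adjusted p from 0.0506 to 0.347 in 6 settings), Spp1 (edgeR, DESeq2 at 0.128 and limma without trend at 0.0559), Fabp4 and Fgf21 (no filter at 0.133 and 0.0577), Lep, Lif and Pdcd1 (no filter at 0.0559, 0.0508 and 0.0696), Tnf and Tpsab1 (edgeR at 0.0505 and 0.0518), Cd8a (library weights at 0.0624) and Scd1 (quantile at 0.0808); Fabp4 also with a pseudocount of 10 (0.053) and Fgf21 under quantile normalisation (0.0505). The cause was not tested. Reads numbered 29362788 or more a library, so genes under a value of 10 limit what could be tested rather than depth at higher values.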

Other observations

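Genes typical of tissues that the labels do not name are few among those tested, and in some lists they were called as often as all genes (34.2% in either direction) or more often. In the mammary and keratin epithelium list 1 of 9 tested genes rose, a call lost when KO 2, KO 3, KO 4, WT 3 or WT 4 was left out, and 3 fell, 1 of them stable. In the testis and epididymis list 2 of 3 tested genes fell, both with a value of 10 in the WT libraries alone and so not tested when 1 of these was left out, and 17 were below the level tested. Of 8 tested skeletal muscle genes 1 rose and 2 fell: Myl1 was at 188.8, 101.4, 178.0 and 173.3 in KO fat and 404.3, 462.7 and 634.1 in WT fat, and fell (log2 fold change -1.65, SE 0.26, limma adjusted p = 0.00261), Acta1 fell (-1.30, not passed when WT 3 was left out) and Tnni2 rose (1.42, not passed when KO 2 or WT 3 was left out). Of 12 tested nerve and Schwann cell genes, Pmp22 and Mag rose (0.55, not passed when WT 3 was left out, and 1.26) and Stmn2 fell (-0.75, not passed when KO 2, KO 3, KO 4, WT 3 or WT 4 was left out). Alas2, an enzyme of haem synthesis in red cell precursors, was at 689.9, 288.0, 423.1 and 394.0 against 677.0, 914.7 and 1129 (-1.05, limma adjusted p = 0.0241, not passed when KO 2, KO 4, WT 3 or WT 4 was left out). Epcam, of epithelium and below the level tested, was at 142.3 in WT 4 and at most 7.26 in the other 6 libraries.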
